A study of Mus musculus with 22 samples.

Results

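Prostaglandins are lipid signals that cells make from arachidonate, and 10 mouse genes of their synthesis and reception are described here. They are the cyclooxygenase genes Ptgs1 and Ptgs2, the terminal synthase genes Ptges, Ptgds, Hpgds and Tbxas1, and the prostaglandin E2 receptor genes Ptger1, Ptger2, Ptger3 and Ptger4. The genes were taken by symbol from the probe annotation, with earlier results of these data known, among them those of Ptgs2 and Ptger3 in microglia. Of the 10 genes, 9 had a probe, and 20 of the 43020 probes and 9 of the 22485 genes in the table were theirs. No probe of the annotation used here named Ptgs1, which is not analysed here. The main probe of a gene was selected on its mean over all 22 samples, the highest mean being used, and those means are given as a description only.

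Microglia and astrocytes came from the cortex of C57BL/6 mice between 15 and 18 months old, either APP/PS1 (APPswe/PS1dE9) or wild-type (WT) littermates. The APP/PS1 line carries a mutant amyloid precursor protein and a mutant presenilin transgene, both driven by promoter sequence of the prion protein gene and expressed mainly in neurons, and it forms amyloid plaques. There were 7 samples of APP/PS1 microglia, 7 of WT microglia, 4 of APP/PS1 astrocytes and 4 of WT astrocytes, which the series describes as biological replicates. In both genotypes the cortex was digested with papain at a warm temperature, myelin and dead cells were removed, and cells were sorted as CD11b and CD45 positive (microglia) or as GLT1 positive and CD11b negative (astrocytes), O4-positive cells being left out. The first gate can hold other myeloid cells of brain and vessels. Each of 11 dual-colour arrays held 1 APP/PS1 and 1 WT sample, paired by replicate number within a cell type, and the dyes were exchanged between arrays. The 7 microglia arrays lay on 2 slides and all 4 astrocyte arrays on the third, so that cell type and slide cannot be told apart.

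Cyclooxygenases turn arachidonate into prostaglandin H2, and the terminal synthases turn that into prostaglandin E2 (Ptges), prostaglandin D2 (Ptgds and Hpgds) or thromboxane A2 (Tbxas1). Ptgs1 is expressed steadily in many cells, while Ptgs2 is the inducible form, an early response gene of inflammation and neuronal activity. Prostaglandin E2 acts through receptors that raise calcium (EP1, from Ptger1), raise cyclic AMP (EP2 and EP4, from Ptger2 and Ptger4) or lower cyclic AMP (EP3, from Ptger3). In brain, microglia are a known source of prostaglandin D2 and thromboxane enzymes, and EP2, EP3 and EP4 have been studied as modifiers of inflammation in amyloid models.

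Values are the deposited log2 values, on which 1 unit is a doubling, and differences are APP/PS1 minus WT with standard errors unless stated otherwise. Sample medians lay between 6.24 and 6.26, and the 22 columns were never more than 0.205 apart at the quantiles compared, so a shift of all genes could not be seen. Between 2249 and 10975 probes were blank on microglia arrays and between 151 and 593 on astrocyte arrays. Where a probe that was blank somewhere did have a value, that value had a median of 3.35 and a 90th percentile of 5.29. A value under 5.29 is therefore called dim below. The number of arrays limits the precision, and p-values measure the spread between these samples. Of 14 measured microglia markers, 13 were lower in WT astrocytes than in WT microglia, and 16 of 16 astrocyte markers were higher. Endothelial (10 of 11) and mural markers (9 of 10) were also higher in WT astrocytes than in WT microglia, with Acta2 of smooth muscle at 15.5 in WT astrocytes and 8.22 in WT microglia. In bulk samples such as these, fewer cells of a type and less RNA per cell cannot be told apart.

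The cell types differed first in which synthases they expressed. Between WT astrocytes and WT microglia, 7 of 9 members passed an adjusted p of 0.05 (limma, Benjamini-Hochberg over all genes), 2 higher and 5 lower in astrocytes. Over all 22394 genes tested, 51.5% passed, 34.1% higher and 17.4% lower. Hpgds, the prostaglandin D synthase of blood and myeloid cells (chromosome 6, 65117293 to 65144981 in GRCm38.p6), averaged 2.86 ± 0.82 in WT astrocytes (SD, n = 4) and 11.001 ± 0.87 in WT microglia (SD, n = 7), a difference of -8.11 ± 0.50 (adjusted p = 2.33e-11). Its 8 astrocyte values were all dim. Tbxas1, the thromboxane synthase gene (chromosome 6, 38864159 to 39084590), averaged 6.59 ± 0.26 in WT astrocytes and 13.02 ± 0.17 in WT microglia, a difference of -6.43 ± 0.32 (adjusted p = 9.4e-13). In neither gene did any astrocyte sample reach a microglia sample.

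Ptgs2 was lower in WT astrocytes than in WT microglia by 3.12 ± 0.51 (difference -3.12, adjusted p = 2.35e-05), Ptger3 by 1.71 ± 0.42 (difference -1.71, adjusted p = 0.00184, with 0.0599 for its second probe) and Ptger4 by 0.76 ± 0.31 (difference -0.76, adjusted p = 0.0478). The Ptger4 call was lost in 9 of 17 alternatives, with adjusted p between 0.0107 and 0.421 over them, and only 4 of 11 fits that left out 1 array kept it, those without microglia replicate 1, 4, 5 or 6. Ptges, the inducible prostaglandin E synthase, was the synthase with the opposite order, at 13.3 ± 0.28 in WT astrocytes and 12.0 ± 0.18 in WT microglia, a difference of 1.29 ± 0.15 (adjusted p = 2.44e-07). Ptger1 was also higher in WT astrocytes, by 1.38 ± 0.23 (adjusted p = 4.02e-05), but all 14 microglia values of it were dim. Ptgds, the lipocalin-type prostaglandin D synthase known from meninges and oligodendrocytes (chromosome 2, 25466709 to 25470110), did not pass, with a difference of -0.55 and a 95% interval of -1.47 to 0.36. Without the array of astrocyte replicate 3 it did, at -1.18 (adjusted p = 0.009). Ptger2, blank on 5 of 7 microglia arrays, differed by -1.22 with an interval of -3.47 to 1.02. The plot of every sample shows these levels.

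**Figure D1:**
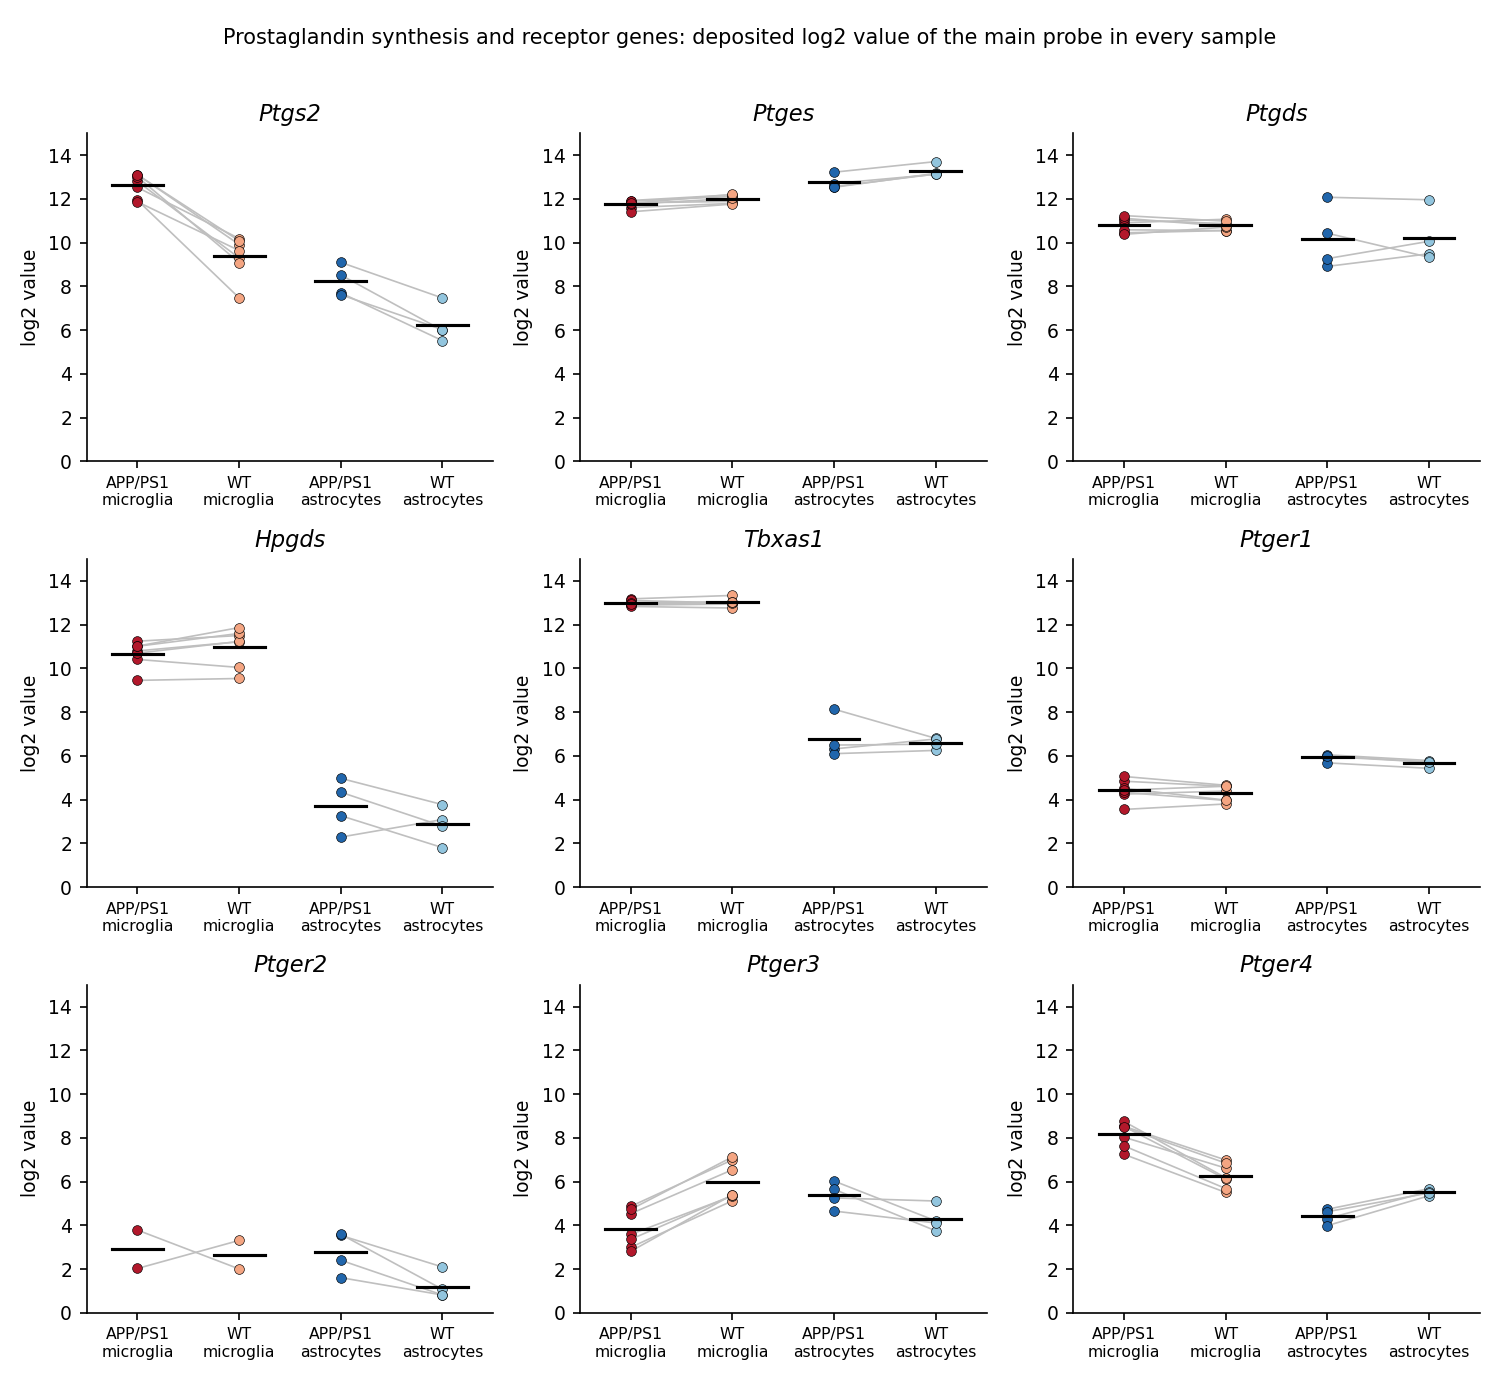
Deposited log2 value of the main probe of 9 genes in each sample of APP/PS1 microglia (n = 7), WT microglia (n = 7), APP/PS1 astrocytes (n = 4) and WT astrocytes (n = 4), with group means as bars and samples of 1 array joined by a grey line; levels of different genes are not comparable. Ptgs2 and Ptger4 in microglia have all 7 lines running down from APP/PS1 to WT and Ptger3 all 7 running up, Hpgds and Tbxas1 sit far lower in astrocytes, and Ptger2 has only 2 microglia arrays.

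In microglia of APP/PS1 mice, the cyclooxygenase gene Ptgs2 and the receptor gene Ptger4 rose, and the receptor gene Ptger3 and the synthase gene Ptges fell. These 4 of 9 members passed the threshold, 2 higher and 2 lower, where 19.7% of 22383 genes passed, 8.27% higher and 11.4% lower. The microglia results of Ptgs2 and Ptger3 were known when the members were taken, so this count is a description and not a test. The median difference of the 9 members was 0.07, against -0.04 over all genes.

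Markers of several cell types also differed by genotype in the microglia samples, and their part in the results on members was not tested. Perivascular macrophage and monocyte markers fell in 7 of 11 cases and rose in 0 (median -0.95), with a summed level of 13.1 to 13.4 in APP/PS1 microglia and 13.5 to 15.2 in WT microglia. Astrocyte markers fell in 9 of 16 cases and rose in 1 (median -0.85, summed 13.1 to 13.8 in APP/PS1 and 13.9 to 14.6 in WT microglia), and neuron markers fell in 6 of 10 and rose in 0 (median -0.64, summed 11.59 to 12.61 in APP/PS1 and 12.24 to 13.04 in WT microglia). The microglia markers themselves rose in 2 of 14 cases and fell in 6 (median -0.42, summed 19.3 to 19.6 in APP/PS1 and 19.7 to 19.9 in WT microglia).

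Ptgs2 (chromosome 1, 150100031 to 150108234) had 13.12, 12.53, 12.81, 11.94, 11.87, 13.01 and 13.10 in APP/PS1 microglia of replicates 1 to 7, against 9.92, 10.19, 9.30, 7.48, 9.64, 9.09 and 10.09 in WT microglia. The lowest APP/PS1 sample stood above the highest WT sample, so the groups did not overlap. The fitted difference was 3.27 ± 0.25 (95% interval 2.71 to 3.82, 9.62-fold, limma adjusted p = 2.25e-05), higher on 7 of 7 arrays, with array differences from 2.23 to 4.46. Replicate 4, whose WT value of 7.48 was the lowest of its group, gave the largest of these. On slide 1 alone the difference was 3.13 (adjusted p = 0.0475) and on slide 2 alone, with 3 arrays, 3.51 (adjusted p = 0.0953).

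Ptgs2 had 10 probes, all annotated with 1 accession, and they gave the same picture. Across the 22 samples the probes correlated pairwise at 0.997 to 1.00, and within a sample their values spanned a median of 0.415. The difference in microglia ranged from 3.27 to 3.36 over the 10 probes and the difference in astrocytes from 1.79 to 2.14. The probes share their transcript and their samples, so they are repeated readings and not replicates.

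The 250 bases before the Ptgs2 transcript start (chr1:150099781-150100030, plus strand, RefSeq, GRCm38.p6) are shown because Ptgs2 moved most among the members. The part of this region in its rise was not tested. The capitals mark matches, on either strand, to motif letters of factors that act on inflammatory genes, searched in all 32851 promoters of the table.
Ptgs2: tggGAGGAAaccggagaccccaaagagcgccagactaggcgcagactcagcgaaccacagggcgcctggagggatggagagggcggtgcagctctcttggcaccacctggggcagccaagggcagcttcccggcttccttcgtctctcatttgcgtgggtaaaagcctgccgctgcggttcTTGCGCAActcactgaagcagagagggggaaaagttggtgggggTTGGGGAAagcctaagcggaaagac
The letters TTNNGNAA, a loose form of the site bound by C/EBP factors, stood at -69 to -62, where they read on both strands, and at -25 to -18. They occur in 36.8% of all promoter windows of this length, and in 5 of the 9 member windows (Hpgds, Ptgds, Ptger2, Ptges and Ptgs2). GAGGAA, the core of an Ets or PU.1 site, stood at -247 to -242 and occurs in 23.3% of all windows and in 5 of 9 member windows (Hpgds, Ptges, Ptgs1, Ptgs2 and Tbxas1). A match describes letters and is not a measured binding site.

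Ptges (chromosome 2, 30889471 to 30931020) differed little in size but evenly. It had 11.90, 11.82, 11.61, 11.41, 11.93, 11.77 and 11.80 in APP/PS1 microglia, against 12.12, 11.89, 11.80, 11.77, 12.19, 12.02 and 12.21 in WT microglia. The ranges overlapped, while the APP/PS1 sample was the lower one on 7 of 7 arrays. The difference was -0.25 ± 0.06 (1.19-fold, adjusted p = 0.0164). It was -0.22 on slide 1 (adjusted p = 0.246) and -0.28 on slide 2 (adjusted p = 0.264), and did not pass on either alone. With the Ptges probes averaged it was -0.10 (adjusted p = 0.477). The call was also lost without microglia replicate 4 (adjusted p = 0.0587) or replicate 6 (adjusted p = 0.0504), and the second Ptges probe, with a mean of 6.31 against 12.3 for the main one, gave 0.05 ± 0.12 (adjusted p = 0.825).

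The other 3 synthases did not pass in microglia. Tbxas1 averaged 12.99 ± 0.12 in APP/PS1 microglia and 13.02 ± 0.17 in WT microglia, a difference of -0.04 with a 95% interval of -0.42 to 0.35. Hpgds averaged 10.66 ± 0.60 in APP/PS1 microglia and 11.001 ± 0.87 in WT microglia, with a difference of -0.28 (interval -0.78 to 0.21, adjusted p = 0.433), lower on 6 of 7 arrays. Ptgds averaged 10.8 ± 0.34 in APP/PS1 microglia and 10.8 ± 0.20 in WT microglia, with a difference of 0.07 (interval -0.31 to 0.45), higher on 4 of 7 arrays. The intervals leave room for changes of these sizes and do not show that the genes were equal.

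Among the receptor genes, Ptger4 rose and Ptger3 fell in microglia, while Ptger1 and Ptger2 did not pass. Ptger4, the EP4 gene (chromosome 15, 5233399 to 5244187), had 8.52, 8.53, 8.03, 7.24, 7.63, 8.75 and 8.48 in APP/PS1 microglia, against 6.12, 6.99, 6.62, 5.50, 5.68, 6.18 and 6.85 in WT microglia. The groups did not overlap, and APP/PS1 was higher on 7 of 7 arrays. The difference was 1.90 ± 0.15 (interval 1.57 to 2.23, 3.72-fold, adjusted p = 2.58e-05), at 1.66 on slide 1 (adjusted p = 0.0238) and 2.29 on slide 2 (adjusted p = 0.107).

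Ptger3, the EP3 gene (chromosome 3, 157566821 to 157644758), had 4.87, 2.99, 3.59, 2.81, 3.36, 4.53 and 4.73 in APP/PS1 microglia, against 6.99, 5.12, 5.34, 5.40, 5.37, 6.54 and 7.13 in WT microglia. Again the groups did not overlap, with APP/PS1 lower on 7 of 7 arrays. All 7 APP/PS1 values and 1 of 7 WT values were dim. The difference was -2.19 ± 0.16 (interval -2.55 to -1.83, adjusted p = 1.86e-05), at -2.12 on slide 1 (adjusted p = 0.0198) and -2.14 on slide 2 (adjusted p = 0.0967). The second Ptger3 probe had a mean of 4.43 against 4.89 for the main one and gave a smaller difference, -1.12 ± 0.18 (adjusted p = 0.00198 over all probes). With dim values and unequal probes the direction is given here and no fold.

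Ptger1, the EP1 gene (chromosome 8, 83666644 to 83672756), averaged 4.43 ± 0.48 in APP/PS1 microglia and 4.29 ± 0.36 in WT microglia, all dim, with a difference of 0.14 (interval -0.10 to 0.38). Ptger2, the EP2 gene (chromosome 14, 44988111 to 45003820), was measured on the arrays of replicates 1 and 7 only. Its values there were 2.03 and 3.78 in APP/PS1 microglia, against 3.31 and 2.00 in WT microglia, so the 2 arrays ran opposite ways. The fit dropped the 5 blank arrays, and the interval of -1.71 to 3.13 allows a large change in either direction.

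The 250 bases before the transcript starts of Ptger3 (chr3:157566626-157566875, plus strand) and Ptger4 (chr15:5244188-5244437, minus strand, written 5′ to 3′ along the gene) are shown because these receptors moved in opposite directions in both cell types.
Ptger3: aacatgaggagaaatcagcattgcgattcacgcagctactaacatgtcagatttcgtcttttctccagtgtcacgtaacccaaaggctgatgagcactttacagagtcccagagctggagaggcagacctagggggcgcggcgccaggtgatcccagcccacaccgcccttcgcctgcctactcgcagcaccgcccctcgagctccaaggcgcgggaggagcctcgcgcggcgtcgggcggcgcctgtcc
Ptger4: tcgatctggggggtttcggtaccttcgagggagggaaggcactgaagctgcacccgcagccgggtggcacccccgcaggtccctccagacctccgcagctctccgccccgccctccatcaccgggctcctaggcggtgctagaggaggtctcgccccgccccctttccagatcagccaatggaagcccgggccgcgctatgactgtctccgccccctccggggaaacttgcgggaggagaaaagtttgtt
Neither window held any of the 8 motifs searched, and so neither has capitals. Those were TATAAA (12.4% of all windows), TGACGTCA (1.55%) and TGACG (17.8%), of which the second contains the third, TGANTCA (6.75%), CACGTG (6.02%), TTNNGNAA, GAGGAA and a form of the NF-kappaB site (4.11%). That says only that these letters are not in these windows. Among the other members, TATAAA was in Tbxas1 and TGANTCA in Ptgds and Tbxas1. The table of promoters had no entry for Ptger1.

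**Figure D2:**
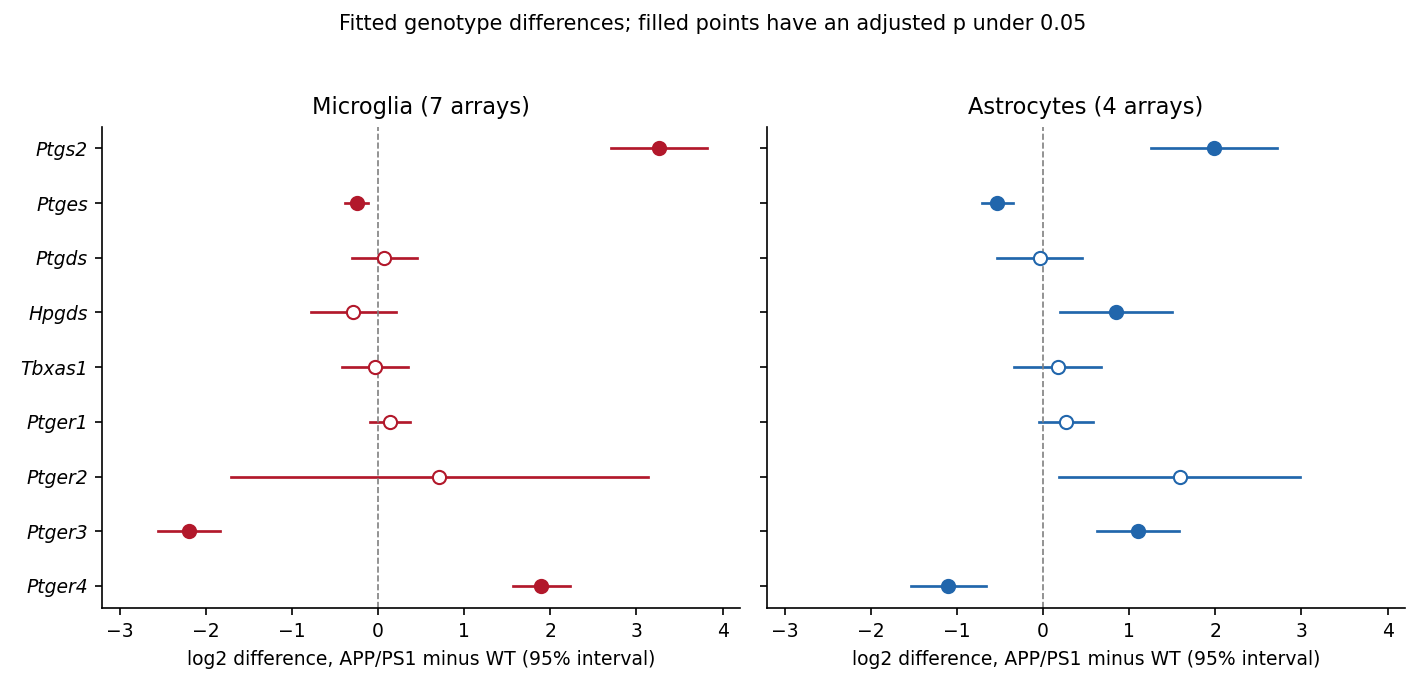
Fitted log2 differences (APP/PS1 minus WT) of the main probes of 9 genes in microglia (left, 7 arrays) and astrocytes (right, 4 arrays), with 95% intervals; filled points passed an adjusted p of 0.05. Ptgs2 lies right of 0 and Ptges left of 0 in both panels, while Ptger3 and Ptger4 lie on opposite sides of 0 in the 2 panels.

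In astrocytes of APP/PS1 mice, Ptgs2, Ptger3 and Hpgds rose and Ptges and Ptger4 fell. These were 5 of 9 members, 3 higher and 2 lower, where 33.5% of 22460 genes passed, 15.4% higher and 18% lower. The median difference of the 9 members was 0.27, against -0.07 over all genes.

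Several markers of other cells moved with genotype in these samples, and their part in the results on members was not tested. On the 4 astrocyte arrays the microglia markers rose in 11 of 14 cases and fell in 2, with a median difference of 1.90, and array medians of 3.42, 1.75, 1.92 and 0.42. None of the 14 had a dim group mean, and the log2 of their summed level was 14.4 to 15.9 in APP/PS1 astrocytes and 14.9 to 15.8 in WT astrocytes. The brightest of them went opposite ways, Csf1r by 1.61 ± 0.36 and Siglech by -0.77 ± 0.10. Siglech had the highest mean in these samples (13.6 in APP/PS1 and 14.4 in WT astrocytes), where the median marker mean was 9.90 and 7.36. The summed level thus follows the brightest markers and not the number that rose. Endothelial markers rose in 10 of 11 cases (median 1.17, summed 18.0 to 18.7 in APP/PS1 and 16.9 to 18.0 in WT astrocytes) and mural markers in 8 of 10 (median 2.01, summed 17.6 to 19.2 in APP/PS1 and 15.0 to 17.7 in WT astrocytes). Astrocyte markers fell in 15 of 16 cases (median -1.35, summed 17.3 to 19.1 in APP/PS1 and 19.4 to 19.6 in WT astrocytes), with Glul at -1.21 ± 0.18. Of 11 perivascular macrophage and monocyte markers 2 rose, and 9 had dim means in both groups.

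Ptgs2 had 9.10, 7.71, 7.62 and 8.52 in APP/PS1 astrocytes of replicates 1 to 4, against 7.47, 5.52, 6.03 and 5.99 in WT astrocytes. The groups did not overlap, and replicate 1 was the highest in both. The difference was 1.99 ± 0.33 (interval 1.25 to 2.72, 3.96-fold, adjusted p = 0.00138), higher on 4 of 4 arrays, at 1.63, 2.18, 1.60 and 2.53. It passed in 28 of 28 alternatives, with adjusted p between 2.85e-05 and 0.0454 over them. The array of replicate 4, with the largest Ptgs2 difference, had the smallest shifts of microglia (0.42) and mural markers (1.00). It had the largest shifts of endothelial (1.89) and of meningeal and fibroblast markers (1.22). Replicate 2, with the next largest Ptgs2 difference, had a mural median of 3.49 and a meningeal and fibroblast median of 0.00. The part of these markers in the Ptgs2 difference was not tested.

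Ptges had 12.54, 12.71, 13.23 and 12.56 in APP/PS1 astrocytes, against 13.17, 13.13, 13.71 and 13.14 in WT astrocytes. APP/PS1 was lower on 4 of 4 arrays by 0.42 to 0.63, though replicate 3 of APP/PS1 reached into the WT range. The difference was -0.53 ± 0.08 (1.44-fold, adjusted p = 8.1e-04). The second probe gave -0.55 ± 0.16 (adjusted p = 0.0263 over all probes), so here both probes fell. The call did not pass with the astrocyte arrays fitted alone (adjusted p = 0.0587).

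Ptger4 had 4.73, 4.31, 3.98 and 4.62 in APP/PS1 astrocytes, against 5.67, 5.54, 5.35 and 5.48 in WT astrocytes. The groups did not overlap, and the 4 APP/PS1 values were dim. The difference was -1.10 ± 0.19 (interval -1.53 to -0.66, adjusted p = 0.00201), between -1.36 and -0.85 on single arrays. On these arrays astrocyte markers differed by a median of -1.35 and microglia markers by 1.90, and their part in this difference was not tested.

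Ptger3 had 6.03, 5.65, 4.65 and 5.25 in APP/PS1 astrocytes, against 4.21, 3.75, 4.11 and 5.11 in WT astrocytes. APP/PS1 was higher on 4 of 4 arrays, while the groups overlapped and 2 of 4 APP/PS1 and 4 of 4 WT values were dim. The 4 array differences had an SD of 0.89. The fitted difference was 1.10 ± 0.21 (interval 0.63 to 1.58, adjusted p = 0.00319), with the spread estimated over both cell types. It was uneven over the arrays, at 1.82 and 1.90 for replicates 1 and 2, whose APP/PS1 samples carried Cy3, and at 0.55 and 0.14 for replicates 3 and 4, whose APP/PS1 samples carried Cy5. The part of dye in this spread was not tested beyond the dye term of the fit. The second probe gave 0.82 ± 0.24 (adjusted p = 0.0235 over all probes).

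Hpgds had 4.97, 2.29, 3.26 and 4.34 in APP/PS1 astrocytes, against 3.77, 3.09, 1.81 and 2.79 in WT astrocytes. All 8 values were dim and the groups overlapped, with APP/PS1 higher on 3 of 4 arrays. The 4 array differences had an SD of 1.11. The difference of 0.85 ± 0.29 passed narrowly (adjusted p = 0.0466) and was lost in 13 of 19 alternatives, among them astrocytes fitted alone (0.85 ± 0.37, adjusted p = 0.192). Of 11 fits leaving out 1 array it passed in 2, those without astrocyte replicate 2 (1.34) or microglia replicate 6, and its adjusted p ranged from 0.00184 to 0.402 over the alternatives. Hpgds was itself far higher in microglia than in astrocytes, and the part of the marker shifts in its difference was not tested.

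The other 4 members did not pass in astrocytes. Tbxas1 had 8.14, 6.32, 6.10 and 6.49 in APP/PS1 astrocytes, against 6.80, 6.77, 6.25 and 6.54 in WT astrocytes. Only replicate 1 was higher in APP/PS1, by 1.34. Without that array the difference was -0.24 in place of 0.17 (neither past the threshold). The array had marker medians of 3.42 for microglia and -2.15 for astrocytes. On replicates 2 to 4 the microglia marker medians were 1.75, 1.92 and 0.42, and Tbxas1 differed by -0.45, -0.15 and -0.04. The part of the markers in the Tbxas1 differences was not tested. Ptger2 was dim in all 8 samples, at 3.54, 1.61, 3.59 and 2.40 in APP/PS1 astrocytes, against 2.09, 0.81, 1.07 and 0.81 in WT astrocytes. Its difference of 1.59 ± 0.54 was positive on 4 of 4 arrays (adjusted p = 0.086), and it passed without microglia replicate 1 (adjusted p = 0.0135) or 7 (adjusted p = 0.0131), the 2 microglia arrays that measured it, and with astrocytes fitted alone (adjusted p = 0.0454). Ptger1 averaged 5.93 ± 0.17 in APP/PS1 astrocytes and 5.66 ± 0.16 in WT astrocytes, with a difference of 0.27 (interval -0.05 to 0.58) that was 0.25 to 0.29 on every one of 4 arrays. Ptgds had 8.92, 9.27, 12.08 and 10.44 in APP/PS1 astrocytes, against 9.49, 10.06, 11.96 and 9.34 in WT astrocytes, a wide spread shared by both genotypes, with a difference of -0.04 (interval -0.53 to 0.46).

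**Figure D3:**
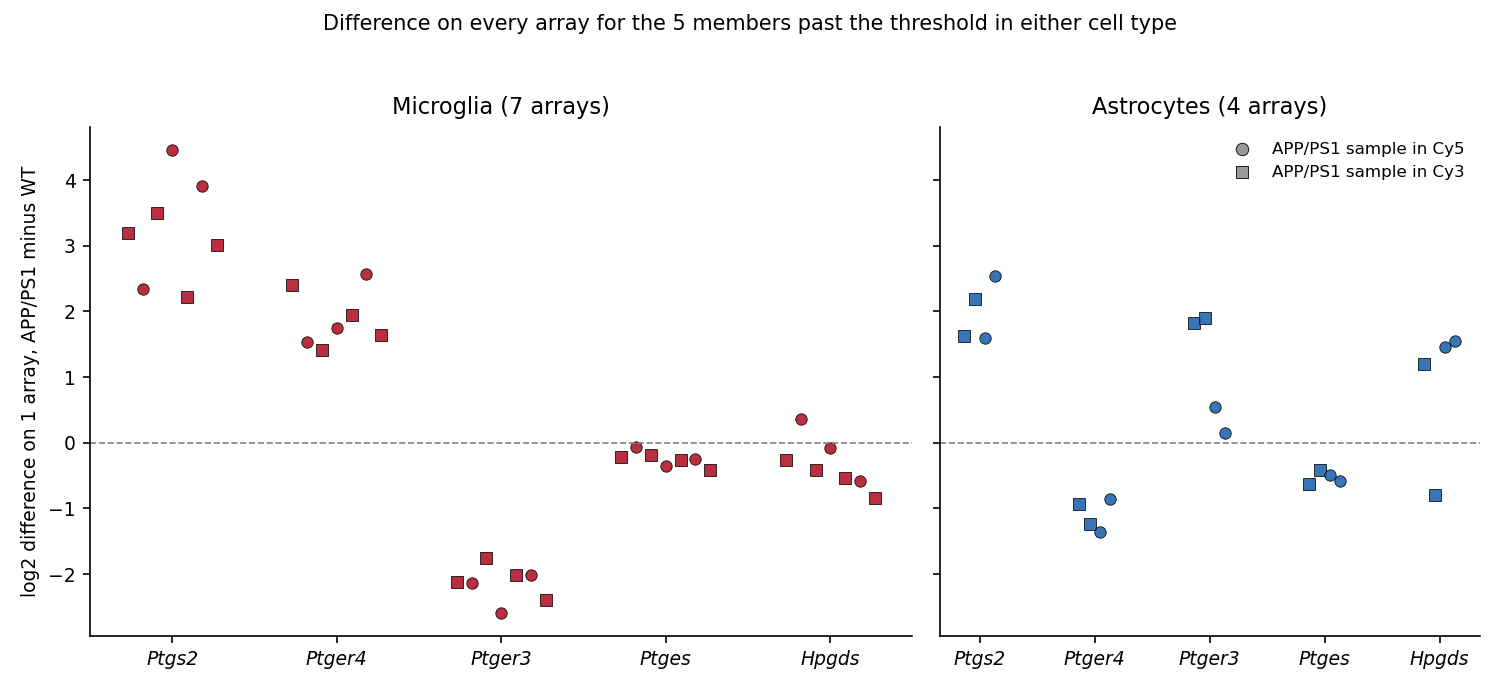
Log2 difference (APP/PS1 minus WT) on every single array for Ptgs2, Ptger4, Ptger3, Ptges and Hpgds in microglia (left, 7 arrays) and astrocytes (right, 4 arrays); circles have the APP/PS1 sample in Cy5 and squares in Cy3. Ptger3 runs from -2.59 to -1.75 in microglia and from 0.14 to 1.90 in astrocytes, Ptger4 from 1.41 to 2.57 and from -1.36 to -0.85.

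**Figure D4:**
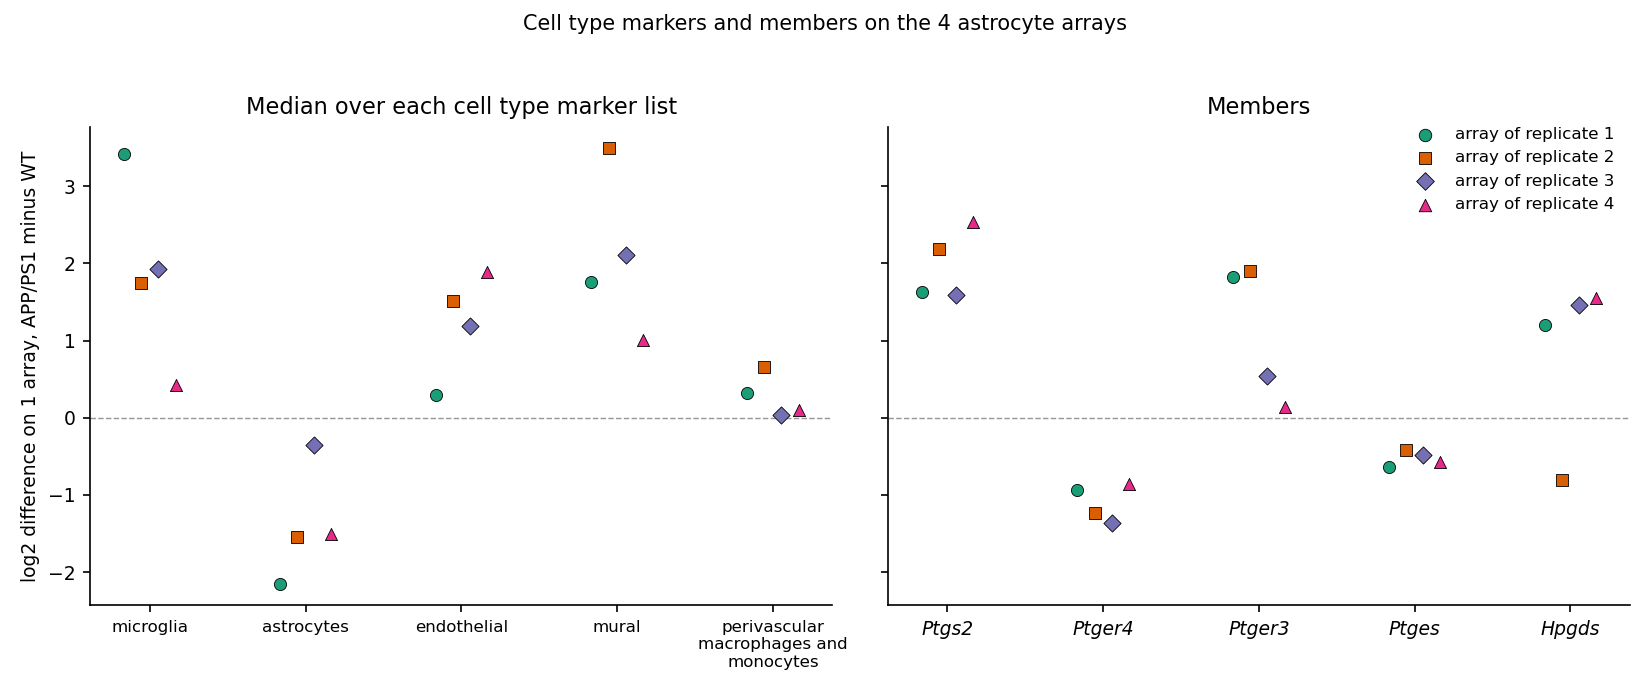
Log2 differences (APP/PS1 minus WT) on the 4 astrocyte arrays, as medians of 5 cell type marker lists (left) and for 5 members (right), with 1 symbol and colour per array. Microglia markers run from 0.42 (replicate 4) to 3.42 (replicate 1) and mural markers from 1.00 (replicate 4) to 3.49 (replicate 2). Endothelial markers run from 0.29 (replicate 1) to 1.89 (replicate 4), and Ptgs2 is highest on replicate 4.

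The effects in the 2 cell types differed for 4 of 9 members, tested as the astrocyte effect minus the microglia effect, 2 higher and 2 lower. Over 22380 genes 26.6% passed, 13.4% higher and 13.2% lower. Ptger3 differed by 3.29 ± 0.27 (adjusted p = 6.72e-05) and Ptger4 by -2.99 ± 0.24 (adjusted p = 6.79e-05), each with opposite signs in the cell types, and both passed in every alternative run (18 for Ptger3 and 17 for Ptger4). Ptgs2 rose in both cell types, less in astrocytes, by -1.28 ± 0.41 (adjusted p = 0.0442). That difference was lost in 12 of 27 alternatives (adjusted p 0.0124 to 0.299) and passed in 2 of 11 fits leaving out 1 array, those without microglia replicate 2 or 5. Hpgds differed by 1.14 ± 0.36 (adjusted p = 0.0443), lost in 12 of 18 alternatives (adjusted p 0.00144 to 0.436), and passed with 1 array left out only without astrocyte replicate 2. Ptges fell in both on its main probe, and its difference of -0.28 ± 0.10 did not pass (adjusted p = 0.0616). That difference passed in 3 of 19 alternatives (adjusted p 0.0217 to 0.604). The second Ptges probe gave 0.05 in microglia and -0.55 in astrocytes.

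Of 22375 genes tested in both cell types, 494 (2.21%) fell in microglia and rose in astrocytes as Ptger3 did, and 393 (1.76%) rose in microglia and fell in astrocytes as Ptger4 did. Another 597 (2.67%) rose in both as Ptgs2 did, and 839 (3.75%) fell in both as Ptges did on its main probe. In the order of levels, Ptgs2 ran from APP/PS1 microglia over WT microglia and APP/PS1 astrocytes to WT astrocytes, and the ranges of the middle groups overlapped. For Ptger4 the order was APP/PS1 microglia, WT microglia, WT astrocytes and APP/PS1 astrocytes, with an overlap between WT microglia (5.50 to 6.99) and WT astrocytes (5.35 to 5.67). For Ptger3 it was WT microglia, APP/PS1 astrocytes, WT astrocytes and APP/PS1 microglia, and each neighbour overlapped the next. For Ptges it was WT astrocytes, APP/PS1 astrocytes, WT microglia and APP/PS1 microglia, with an overlap between genotypes and none between cell types.

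The genes most like each member were those with the smallest root mean square distance between their array differences over the 11 arrays, among 16309 genes measured on all of them. For Ptgs2 they were Cxcl1, a neutrophil chemokine gene (distance 0.626), Ch25h, a cholesterol hydroxylase gene (0.693), and Cdkn1a, a cell cycle inhibitor gene (0.697). Cxcl1 differed by 3.12 in microglia and 1.66 in astrocytes, Ch25h by 3.63 and 1.62, and Cdkn1a by 2.89 and 1.26. For Ptger4 they were Noct, a clock-linked phosphatase gene (0.459), Got1, an aminotransferase gene (0.480), and Upk1a, a uroplakin gene (0.517). For Ptger3 they were Rasd2 (0.660), Bank1 (0.727) and Klf2, a transcription factor gene (0.732). For Ptges they were Oas1b (0.0796), Tmem18 (0.111) and Med1 (0.113), and for Hpgds Gpr161 (0.413), Pik3cg (0.469) and Tmem273 (0.490). Small distances come easily to genes with small differences, so they are not compared between members.

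The genes around the members were read from a list of 81, of which 76 were measured. In microglia 10 rose and 14 fell (median -0.08, against -0.04 over all genes), and in astrocytes 28 rose and 17 fell (median 0.25, against -0.07). Over all genes tested 8.27% rose and 11.4% fell in microglia, and 15.4% rose and 18% fell in astrocytes, and the counts of each group of genes that follow stand against these shares. The list was drawn up with earlier results known and, like the members, has no test of its own.

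Genes that release arachidonate from lipids, 19 measured, had 2 rises and 5 falls in microglia and 1 rise and 10 falls in astrocytes. In microglia the lysosomal phospholipase gene Pla2g15 fell by 0.53 ± 0.08 (difference -0.53, adjusted p = 0.0017), and the phospholipase genes Pla2g12a (0.50 ± 0.08) and Pla2g6 (0.61 ± 0.10) rose. In astrocytes the exception was Pla2g4a, the cytosolic phospholipase A2 that supplies cyclooxygenases. It averaged 10.1 ± 0.40 in APP/PS1 astrocytes and 8.42 ± 0.69 in WT astrocytes (SD, n = 4 each), a difference of 1.67 ± 0.19 (adjusted p = 2.42e-04), higher on 4 of 4 arrays. In microglia it differed by -0.28 ± 0.14, which did not pass (limma adjusted p = 0.213), and the 2 effects differed (adjusted p = 3.79e-04). Pla2g4a was lower in WT astrocytes than in WT microglia (difference -1.69 ± 0.31). In the astrocyte samples microglia, endothelial and mural markers rose by medians of 1.90, 1.17 and 2.01. The part of these markers in the Pla2g4a difference was not tested. Mgll, the lipase that frees arachidonate from 2-arachidonoylglycerol in brain, fell in astrocytes, at 14.6 ± 0.61 in APP/PS1 and 15.9 ± 0.09 in WT (-1.31 ± 0.17). Dagla, which makes that lipid, also fell there (-1.36 ± 0.14). Both fell in microglia too (-0.48 ± 0.13 for Mgll and -0.51 ± 0.11 for Dagla). Both were higher in WT astrocytes than in WT microglia, by 4.35 and 1.35. Astrocyte markers differed by a median of -1.35 in the same astrocyte samples, and their part in these differences was not tested.

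Terminal synthases, reductases and transporters, 12 measured, had 1 rise and 1 fall in microglia, those of the reductase genes Akr1c18 (0.43 ± 0.06) and Prxl2b (-0.41 ± 0.08). In astrocytes 6 rose and 2 fell. Ptgis, the prostacyclin synthase of vessel walls, averaged 11.8 ± 0.93 in APP/PS1 astrocytes and 9.63 ± 1.21 in WT astrocytes (2.16 ± 0.24, adjusted p = 2.42e-04). The prostaglandin transporter gene Slco2a1, known from endothelium, rose by 1.09 ± 0.08 and the glutathione transferase gene Gstm2 by 1.33 ± 0.15. The other prostanoid receptors, 5 measured, all had dim means in both microglia groups. Ptgdr, Ptgdr2 and Ptgfr had values on only 3, 4 and 3 of the 7 microglia arrays. Of the 5 receptors, 0 passed in microglia (limma, 0 of 5 at an adjusted p of 0.05) and 2 rose in astrocytes. These were Ptgir, the prostacyclin receptor (1.94 ± 0.45, adjusted p = 0.00803), and Tbxa2r, the thromboxane receptor (1.76 ± 0.27, adjusted p = 0.00101), both known from smooth muscle and platelets. Endothelial and mural markers rose in the same samples by medians of 1.17 and 2.01, and their part in these differences was not tested.

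Leukotriene and lipoxygenase genes, 12 measured, had 2 falls in microglia. Alox5ap, which presents arachidonate to 5-lipoxygenase, averaged 12.9 ± 0.18 in APP/PS1 microglia and 13.9 ± 0.20 in WT microglia (SD, n = 7 each), a difference of -0.95 ± 0.12 (adjusted p = 5.44e-04), lower on 7 of 7 arrays. Ltc4s, the leukotriene C4 synthase, differed by -0.88 ± 0.11 (adjusted p = 4.93e-04). Thus within microglia Ptgs2 rose while these leukotriene genes fell. In astrocytes 3 rose and 1 fell. The leukotriene receptor gene Cysltr2 rose by 1.76 ± 0.29, Alox12 by 0.99 ± 0.21 and Alox5ap by 0.70 ± 0.16. The epoxide hydrolase gene Ephx2 differed by -1.25 ± 0.20. Between WT astrocytes and WT microglia, Cysltr2 differed by 2.47, Alox12 by 4.11, Alox5ap by -7.79 and Ephx2 by 8.03. In the astrocyte samples microglia, endothelial, mural and astrocyte markers differed by medians of 1.90, 1.17, 2.01 and -1.35. The part of these markers in the 4 differences by genotype was not tested.

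Genes that couple the receptors to their signals, cyclic AMP or calcium, 17 measured, had 4 rises and 4 falls in microglia and 7 rises and 4 falls in astrocytes. The phosphodiesterase gene Pde4b, which ends the cyclic AMP signal, averaged 10.7 ± 0.50 in APP/PS1 microglia and 9.13 ± 0.53 in WT microglia (1.57 ± 0.12, adjusted p = 1.87e-05). In astrocytes it averaged 9.75 ± 0.12 in APP/PS1 and 10.5 ± 0.25 in WT (-0.73 ± 0.15, adjusted p = 0.00503), and the 2 effects differed (adjusted p = 7.26e-05). Its signs in the cell types were thus those of Ptger4. Gnas, the stimulatory G protein, rose in microglia by 0.99 ± 0.09 and the adenylyl cyclase gene Adcy4 by 0.97 ± 0.16. In astrocytes the smallest adjusted p were those of Prkacb (0.72 ± 0.09), Adcy4 (1.23 ± 0.21) and Adcy7 (1.39 ± 0.26). The WT astrocyte mean of Adcy7, 4.36, was dim. Between WT astrocytes and WT microglia, Prkacb differed by 0.61, Adcy4 by 4.68 and Adcy7 by -7.97. In the astrocyte samples microglia, endothelial, mural and astrocyte markers differed by medians of 1.90, 1.17, 2.01 and -1.35. The part of these markers in the astrocyte differences by genotype was not tested.

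Of 11 measured genes that induce Ptgs2 or share its induction, 3 rose and 2 fell in microglia, and 9 rose and 0 fell in astrocytes, where 15.4% of all genes rose and 18% fell. Il1b, the cytokine interleukin-1 beta, averaged 15.9 ± 0.47 in APP/PS1 microglia and 13.3 ± 0.59 in WT microglia (2.49 ± 0.29, adjusted p = 3.11e-04). Its receptor gene Il1r1 rose in microglia by 1.89 ± 0.14, from a dim WT mean of 4.30, and Nfkb2 rose by 0.72 ± 0.10. The 2 falls in microglia were those of Cebpd (-0.94 ± 0.14) and Tlr4 (-0.61 ± 0.09). Tnf differed by 0.01 ± 0.29 in microglia and did not pass (adjusted p = 0.984). In astrocytes Il1b averaged 9.02 ± 1.77 in APP/PS1 and 5.08 ± 0.98 in WT (3.93 ± 0.38). Tnf rose by 2.61 ± 0.39 and the early response gene Egr1 by 2.37 ± 0.25. The WT astrocyte means of Il1b (5.08) and Tnf (5.02) were dim. WT astrocytes were lower than WT microglia by 8.24 for Il1b (difference -8.24) and 9.62 for Tnf (difference -9.62). The microglia markers in these astrocyte samples rose by a median of 1.90. The log2 of their summed level was 14.4 to 15.9 in APP/PS1 and 14.9 to 15.8 in WT astrocytes. That sum follows the brightest markers and not the number that rose. Siglech, which fell, had the highest mean (13.6 in APP/PS1 and 14.4 in WT astrocytes), where the median marker mean was 9.90 and 7.36. The part of these markers in the Il1b and Tnf differences was not tested.

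**Figure D5:**
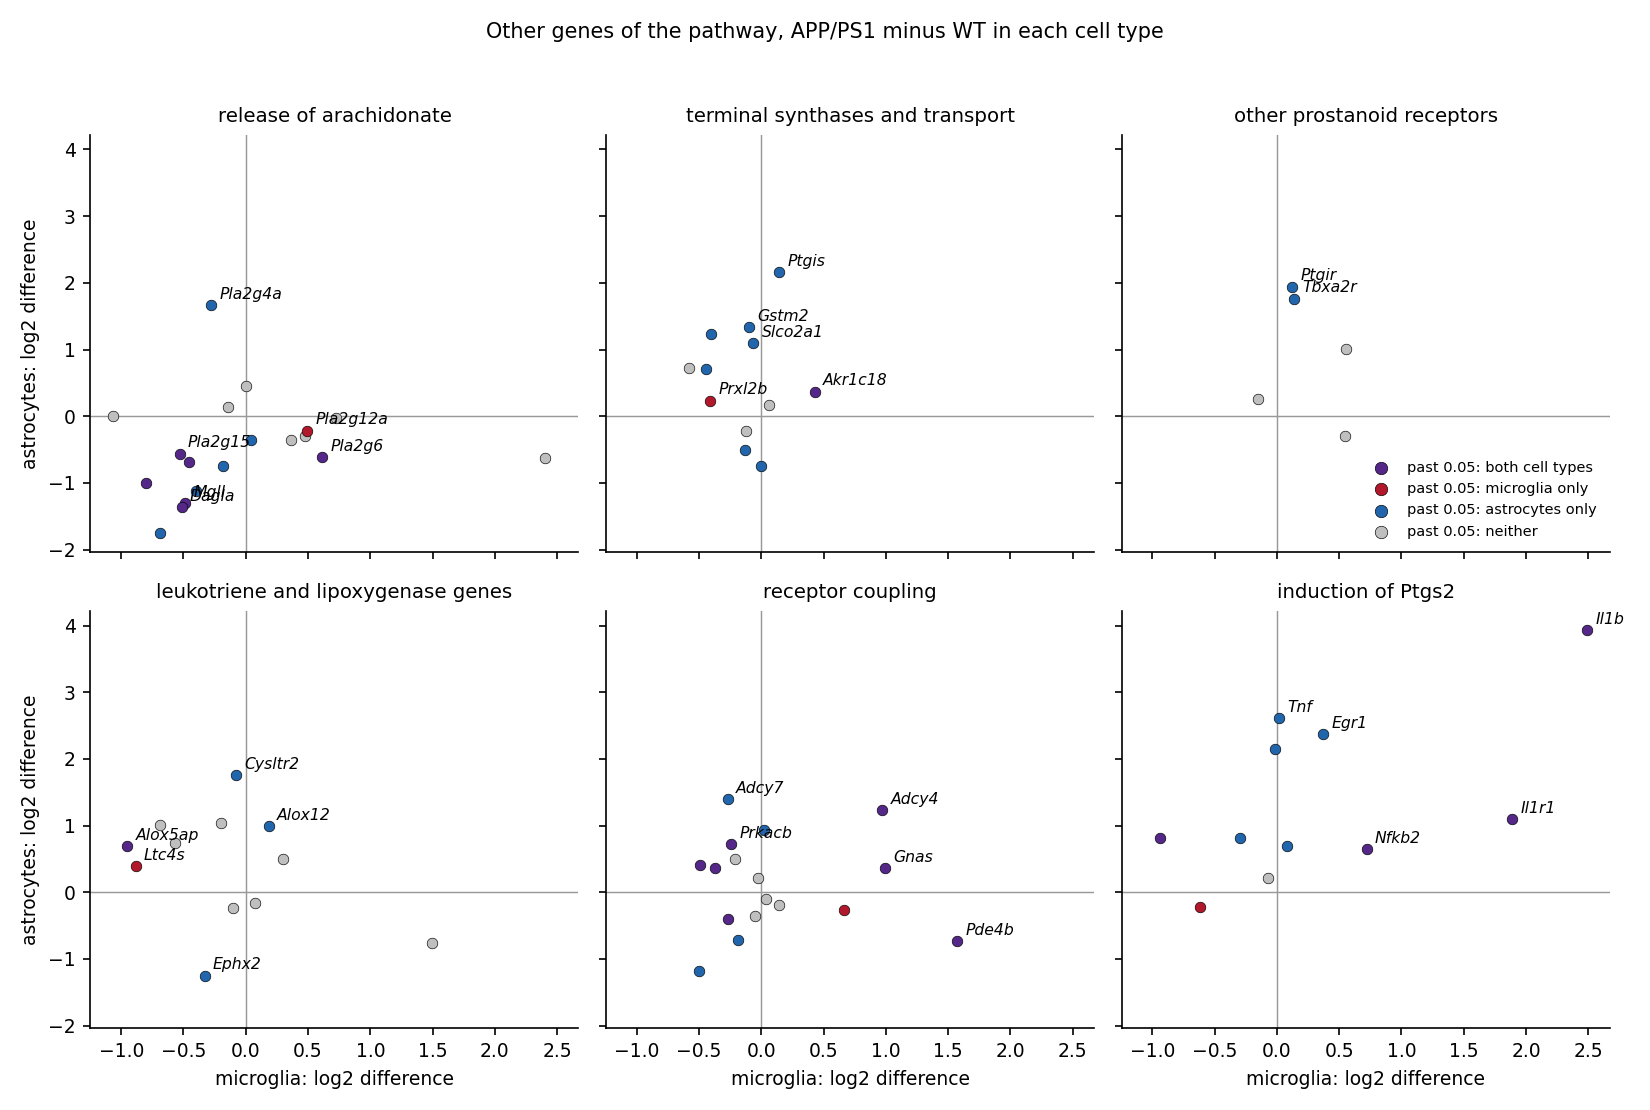
Fitted log2 differences (APP/PS1 minus WT) of 76 genes around the members, in microglia (horizontal) and astrocytes (vertical), in 6 panels by role; colours mark in which cell type the adjusted p was under 0.05, and named genes are up to 3 per cell type and panel with the smallest adjusted p. Pde4b lies right and below 0, Pla2g4a, Ptgis and Tnf lie high at microglia values near 0, and Il1b is high on both axes.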

How the data were processed

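The authors deposited single-channel log2 values of dual-colour Agilent arrays in a table of 22 samples. Per the submitters' processing notes limma was used; its version, background correction and normalization steps were not given in the sources used here. Members, gene lists, tests and alternatives were chosen with earlier results of these data known. Of 43020 probes, 33026 named 1 gene, 0 several and 9994 none; the gene identifiers of 32438 probes matched RefSeq and 0 symbols changed. The probe with the highest mean over 22 samples stood for a gene.

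Genotype within cell type was estimated from 1 limma model (22 samples), which also held fixed array terms and a dye covariate, and the 2 effects were compared by the interaction. WT astrocytes and WT microglia were compared by group means, adding the dye and treating array as random. All tests were two-sided, p-values were adjusted over all genes (Benjamini-Hochberg) and the threshold was 0.05; tests of single probes were adjusted over all probes. The labels put samples of the same number on 1 array, which gives the pairing: as a check, for microglia, deviations from the group means correlated at a median of 0.47 (lowest 0.37, highest 0.63), and for astrocytes at 0.23 (lowest 0.00, highest 0.50). The named genes were all members and their probes. Of each part of the pathway list, up to 3 genes per cell type with the smallest adjusted p past 0.05 were named. Also named were the 3 genes most like each member that passed in either cell type, and 2 markers, the brightest, of the marker lists described. The values of Alox5ap in astrocytes and of Tnf, Cebpd and Tlr4 in microglia were added after they were seen, as were the array counts of Ptgdr, Ptgdr2 and Ptgfr. The marker lists covered microglia, astrocytes, endothelial, mural, perivascular macrophage and monocyte, oligodendrocyte, neuron and meningeal cells. In astrocytes 2 of 8 oligodendrocyte markers rose and 2 fell, 1 of 10 neuron markers rose and 2 fell, and 2 of 7 meningeal markers rose; in microglia 1 endothelial, 1 mural and 2 oligodendrocyte markers rose and 0 of these or of the meningeal markers fell.

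Alternatives were no array block, a random block for array or slide, each cell type or slide alone, no dye term, quantile normalization, averaged or other probes, only genes above the median gene or measured on all arrays, and each array left out. The fit was tested on simulated data. Python 3.11.15, R 4.3.3, limma 3.58.1 and statmod 1.5.0 were used. Promoter windows and gene coordinates are RefSeq's (GRCm38.p6).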

Additional observations from a re-analysis of the deposited data

Results flagged for a closer look

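In 34 groups of 4 to 7 samples, 2 samples stood far from the others of their group, where chance gives about 1 in 20. The WT microglia sample of replicate 4 had 7.48 for Ptgs2, with the nearest WT sample at 9.09. The WT astrocyte sample of replicate 3 had 13.71 for Ptges, with the nearest at 13.17.

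The genotype effect differed between astrocytes and microglia by the interaction test for 4 members, as astrocyte effect minus microglia effect. The differences were 3.29 for Ptger3, -2.99 for Ptger4, -1.28 for Ptgs2 and 1.14 for Hpgds. Those of Ptgs2 and Hpgds lay close to the threshold and did not hold under most fits that left out 1 array.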

How the results depend on the processing

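Among the alternatives for single members, 59 lost a call, 8 gained one, 13 changed sign and the rest did none of these. In microglia 0 of 8 members and 0 genes passed on slide 2 alone (limma, 4651 of 19794 genes and 3 members at an unadjusted p under 0.05), against 3 members and 1039 genes on slide 1 alone, with fewer arrays fitted; of the pathway genes 0 passed on slide 2 and 7 on slide 1. Without the replicate block that pairs samples of an array, the genes that passed numbered 1184 (microglia), 2447 (astrocytes) and 1491 (difference of effects), against 4404, 7515 and 5953, with 11, 24 and 15 pathway genes, and 3, 2 and 2 members; Ptges in microglia (adjusted p = 0.485), Ptges, Hpgds and Ptger3 in astrocytes (0.0741, 0.402 and 0.203) and the Ptgs2 and Hpgds differences (0.299 and 0.436) then lost their calls. With astrocytes fitted alone 2854 genes and 25 pathway genes passed. With no dye term 2 members differed between effects. Among genes above the median gene, 5 members remained to be tested, and 2, 3 and 4 passed in microglia, astrocytes and between cell types. With slide as a random block 7166 genes differed between cell types, against 11543. Leaving out 1 array, members called for the difference of effects numbered 2 to 3.

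Signs changed only for differences that had not passed, except Ptges in microglia on its second probe (0.0528). On slide 1 alone Ptgds was -0.0687 and Tbxas1 0.0322 in microglia. Leaving out 1 array, Ptgds ranged from -0.00351 to 0.18 in microglia, from -0.37 to 0.15 in astrocytes and from -0.42 to 0.0873 for the difference, Tbxas1 from -0.24 to 0.44 and from -0.22 to 0.49 for the last 2, and Ptger2 from -0.82 to 2.24 in microglia and from -0.66 to 2.40 for the difference. The cause was not tested. Signal over background was not in the table, so dim probes (Hpgds in astrocytes, Ptger1 in microglia, Ptger2, Ptger3) are limited most.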
